A study of Mus musculus with 6 samples.

Results

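Stimulated control CD8+ T cells were compared with fresh unstimulated CD8+ T cells by RNA-Seq. The comparison holds 4 of the 6 libraries of the series, 2 of each group, which were assigned by their sample labels. CD8+ T cells were isolated by negative selection from the spleens of wild type C57BL/6 mice 8 weeks old. Control cells were stimulated for 72 h by antibodies to CD3 and CD28 coated on the plate and kept away from magnets, whereas unstimulated cells were taken fresh and had not been cultured. The 2 groups therefore differ in stimulation and in time in culture, and these cannot be told apart. The labels do not state that the 2 replicates of a group came from separate mice, so the spread between them may be technical. The other 2 libraries, from cells stimulated in a static magnetic field (SMF), were not used here.

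A CD8+ T cell that leaves the thymus rests in a quiescent state and circulates between blood, spleen and lymph nodes. When its T cell receptor (TCR) and the costimulatory receptor CD28 are engaged together, it enters the cell cycle, turns to glycolysis and lipid synthesis, and acquires the granzymes, perforin and cytokines of a cytotoxic effector cell. The transcription factors that hold it in quiescence and the receptors that steer it through lymphoid organs are shut down over the same days.

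The level of a gene is given in FPKM, the fragments mapped to it divided by its length and by the number of fragments mapped in the library, summed over its annotated transcripts. FPKM values are relative to the RNA of the same library, so a change in the total RNA of a cell is not seen in them. Annotated transcripts were covered by 67.4 and 132 Mb of sequenced bases in unstimulated replicates 1 and 2 and by 64.4 and 171.7 Mb in the control ones, and all pairs of values that follow are in this order of replicates. Of 54446 annotated genes, 14915 reached 1 FPKM in the mean of the 4 libraries and were tested with limma on log2(FPKM + 1). The unstimulated libraries listed 2416 and 1262 of these genes at 0, and the control libraries 2929 and 1488, more in replicate 1 of each group than in replicate 2. Libraries of the same replicate number lay in one dated folder in the file headers, June 2017 for replicate 1 and November 2017 for replicate 2, called run 1 and run 2 here.

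Genes changed in both directions. A gene was taken to have risen or fallen when it changed at least 2-fold and limma gave it an unadjusted p no higher than 0.05, the thresholds of the study. By this rule 1511 genes, 10.1% of those tested, rose in control cells and 1663 genes, 11.1%, fell, and the median change over all genes was -0.10 on the log2(FPKM + 1) scale. The split between the directions moved with the scaling, to 1290 risen and 1920 fallen genes with TPM and 1676 risen and 1496 fallen with all libraries set to one median, and to 1048 risen and 1506 fallen without unstimulated replicate 1. At an adjusted p under 0.05 over all 14915 genes, 109 genes (0.731%) were higher and 121 genes (0.811%) lower, 230 in all, against 3310 genes at an unadjusted p of at most 0.05. With the replicate number as a block in the same fit, 926 genes had an adjusted p under 0.05. This adjusted count depended on single libraries, with 788 genes without unstimulated replicate 1 and none without any one of the other 3 libraries, whereas at least 1048 genes rose and 1102 fell by the study's thresholds whichever library was left out. Within the runs, 11.4% of genes were at least 2-fold higher in both and 13.0% at least 2-fold lower in both, and 2790 of the 3174 genes that rose or fell were among them. Across genes, which are not independent replicates, the replicates of a group correlated at r = 0.79 for unstimulated and r = 0.83 for control cells, and libraries of different groups at r = 0.65 to 0.68. With 2 libraries against 2, an exact permutation test of a single gene cannot give a two-sided p under 0.333, so every p below comes from the model fitted across all genes.

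One property of the files touches many of the values. Of the genes tested, 5063 (33.9%) have an exon that lies opposite an exon of another gene on the other strand over at least 50 bases, and of the 30 genes with the highest mean FPKM 26 do, each at over 10 times the level of the gene it faces. The kit keeps the strand of the RNA, and the file headers give the StringTie option --fr for the orientation of the reads. The kit version, which sets that orientation, is not given in the sources used here, and whether the option matches it was not tested. If it did not match, reads of a gene could be credited to the gene it faces or be lost, so the values of both genes of a pair, and of genes with few spliced reads, are uncertain. Without the genes that face another, 9852 genes were tested, of which 916 rose and 1027 fell and 2 had an adjusted p under 0.05. Each gene described below that faces another is therefore named with a partner. In the 24 gene lists between 1 and 17 of the members tested face another gene, and the number is given for the lists where at least 8 do. The counts of risen and fallen members in each list stand against 10.1% and 11.1% of all genes tested. No list was tested as a set.

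Markers of T cells were present in all 4 libraries. The TCR subunit gene *Cd3e*, which faces *Gm48719*, stood at 88.7 and 88.4 FPKM in the unstimulated and at 66.3 and 84.4 FPKM in the control libraries, and *Cd8a*, for a chain of the CD8 co-receptor, at 92.5 and 105 and 35.5 and 59.98 FPKM. The unstimulated libraries also held markers of other spleen cells. Summed over 18 B cell markers, the level was 867.6 and 837.5 FPKM in the unstimulated and 95.6 and 103.7 FPKM in the control libraries, and 15 of the 17 markers tested fell. The immunoglobulin light chain gene *Igkc* went from 86.1 and 156 to 7.53 and 3.86 FPKM, a log2 change of -4.18 ± 0.50 (SE; adjusted p = 0.0431). Of 16 myeloid markers 13 were tested and 8 fell, with summed levels of 334.1 and 355.9 FPKM in the unstimulated and 63.1 and 102.9 FPKM in the control libraries. *Lyz2*, lysozyme of macrophages and monocytes, was at 42.5 and 73.96 FPKM and *Tyrobp*, a signalling adaptor of myeloid and NK cells, at 59.9 and 52.7 FPKM in the unstimulated libraries, and both were listed at 0 in the control libraries. Summed NK cell markers were at 23.4 and 12.9 FPKM in unstimulated cells and at 0 and 2.29 FPKM in control cells. The 4 markers of CD4+ T cells summed to 31.2 and 14.5 FPKM in unstimulated and 12.8 and 22.8 FPKM in control cells. The groups overlapped in this sum. Of the 4 markers 1 fell, and *Cd4* itself was at 2.05 and 4.68 and 0 and 2.18 FPKM. Erythroid markers summed to 18.3 and 25.1 against 8.36 and 8.97 FPKM, and platelet markers to 0.76 and 4.46 FPKM against a listing at 0 in both control libraries. Among 6 markers of stroma and endothelium only *Pecam1*, an adhesion molecule that leukocytes also carry, was tested, and it rose from 17.7 and 54.2 to 199 and 144 FPKM, while the collagen gene *Col1a1* was listed at 0 in all 4 libraries. In bulk RNA a smaller number of cells of a type and less RNA in each cell cannot be told apart. A gene below that fell and that B cells or myeloid cells also use fell together with these markers, and the part of the other cells in its fall was not tested.

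**Figure D1:**
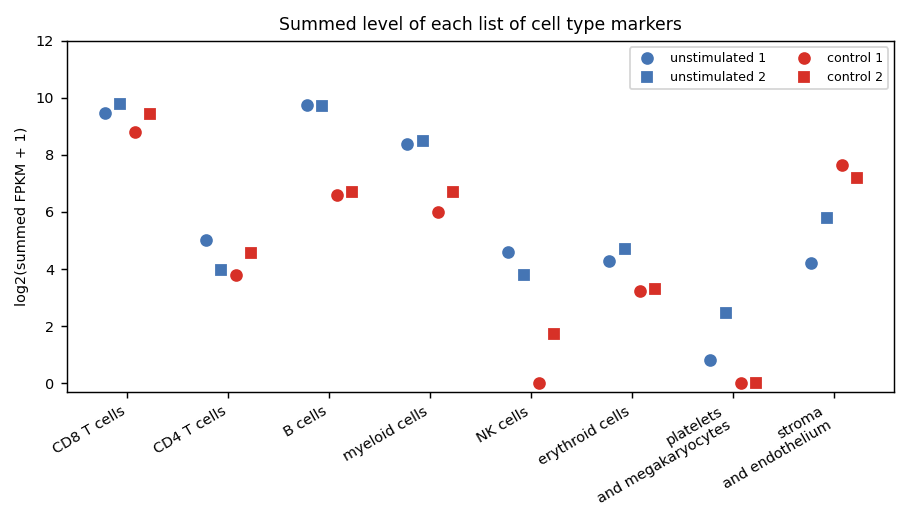
Summed FPKM of each list of cell type markers in the 4 libraries, plotted as log2(summed FPKM + 1); blue marks unstimulated and red control cells, circles replicate 1 and squares replicate 2. B cell markers lie at 867.6 and 837.5 FPKM in unstimulated and at 95.6 and 103.7 FPKM in control cells, while the CD8 T cell markers lie between 446.2 and 880.5 FPKM in all 4 libraries.

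Granzyme B led the cytotoxic granule genes that rose. *Gzmb*, for the serine protease that triggers apoptosis in target cells, was at 10.2 and 11.7 FPKM in the unstimulated and at 1494 and 1565 FPKM in the control libraries, 140.0 times as high by the group means, with a log2 change of 7.01 ± 0.26 (SE; adjusted p = 0.00829). The 2 replicates of each group lay close together, and the change was 7.07 and 6.95 in runs 1 and 2. Of the 17 granule genes listed, 11 were tested, 5 rose and 1 fell, with a median log2 change of 1.37, or 0.51 without control replicate 2, and medians of 0.81 and 1.10 within runs 1 and 2. The risen and fallen shares were 45.45% and 9.09%, against 10.1% and 11.1% of all genes tested. Perforin, *Prf1*, which forms the pore through which granzymes enter, rose from 3.07 and 12.8 to 25.9 and 28.6 FPKM (1.91 ± 0.68), and *Nkg7*, for a granule membrane protein, from 12.01 and 27.7 to 77.2 and 92.6 FPKM (2.15 ± 0.48). Both inhibitors on the list rose. *Serpinb9*, an inhibitor of granzyme B that protects the killer cell, went from 1.32 and 0.741 to 31.8 and 46.3 FPKM (4.29 ± 0.49; adjusted p = 0.0412), and *Serpinb6b* from 9.51 and 9.301 to 75.5 and 91.9 FPKM (3.02 ± 0.34; adjusted p = 0.0412). The granzymes did not move as one. *Gzma* was at 77.7 and 38.2 FPKM in unstimulated cells and at 18.3 and 0 FPKM in control cells, a log2 change of -3.66 ± 1.44 that did not pass the test, and the 2 control libraries were far apart. *Gzmc* was listed at 0 in 3 libraries and at 5.67 FPKM in control replicate 2, and *Gzmd*, *Gzme*, *Gzmf*, *Gzmg*, *Gzmk* and *Gzmm* were listed at 0 in all 4. *Ctsw*, a cathepsin of cytotoxic lymphocytes, fell from 55.9 and 56.7 to 25.2 and 27.6 FPKM (-1.06 ± 0.31). The proteoglycan gene *Srgn* and the lysosomal membrane gene *Lamp1*, which faces *Grtp1*, did not pass, at log2 changes of 0.65 ± 0.36 and 0.14 ± 0.48. Without control replicate 2 the number of granule genes that rose was 3, and it was 4 or 5 without any other library. With the replicate number as a block 2 genes fell.

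**Figure D2:**
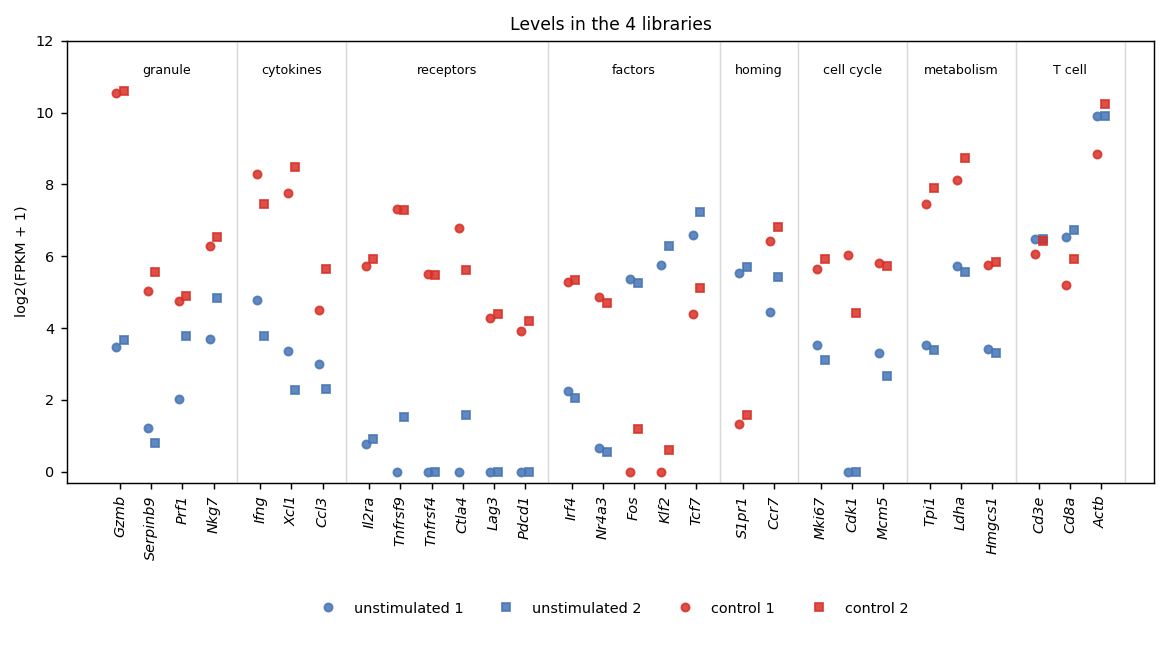
Levels of 29 genes named in the text in each of the 4 libraries, as log2(FPKM + 1), grouped by role; blue marks unstimulated and red control cells, circles replicate 1 and squares replicate 2. *Gzmb* and *Tnfrsf9* lie far higher in both control libraries than in both unstimulated libraries, *Klf2*, *Fos* and *S1pr1* far lower, and *Actb* shows no separation of the groups.

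Among secreted mediators and death ligands, 7 of the 16 genes tested rose and 1 fell, with a median log2 change of 1.48. These shares were 43.75% and 6.25%, against 10.1% and 11.1% of all genes tested. *Ifng*, for interferon-gamma, rose from 26.3 and 12.7 to 309.5 and 175 FPKM (3.59 ± 0.50; adjusted p = 0.0497), and *Xcl1*, for the chemokine that draws cross-presenting dendritic cells, from 9.26 and 3.82 to 216 and 359 FPKM (5.32 ± 0.51; adjusted p = 0.0361). *Xcl1* faces *Gm20743*. For both genes the lower control library lay several fold above the higher unstimulated library. The macrophage chemoattractant *Ccl3* rose from 7.03 and 3.97 to 21.9 and 48.95 FPKM (2.42 ± 0.57), and *Fasl*, the ligand of the death receptor Fas, was at 0 and 1.11 FPKM in unstimulated and 6.25 and 4.64 FPKM in control cells (2.14 ± 0.71). *Csf2*, for GM-CSF, which faces *Gm12223*, and *Tnfsf11*, for RANK ligand, were listed at 0 in both unstimulated libraries and stood at 4.37 and 2.15 and at 2.399 and 5.78 FPKM in the control libraries. *Tgfb1* rose from 8.27 and 11.9 to 24.7 and 31.3 FPKM (1.395 ± 0.41). *Tnf* did not pass the test at 0 and 2.58 FPKM in the unstimulated and 7.01 and 2.897 FPKM in the control libraries, and its groups barely separated. *Ccl4* was at 8.05 and 3.17 against 7.902 and 38.2 FPKM, and the groups overlapped. *Ccl5*, at 20.2 and 37.3 FPKM in unstimulated and 14 and 10.9 FPKM in control cells, and *Ltb*, at 67.8 and 85.7 against 32.7 and 46.9 FPKM, lay lower in both control libraries without passing. *Il16*, which faces *Stard5*, fell from 18.6 and 33.5 to 4.12 and 7.24 FPKM. *Il2*, *Il3*, *Il10* and *Ccl1* were listed at 0 in all 4 libraries, including those of cells stimulated for 72 h. Leaving out 1 library left between 3 risen genes, without unstimulated replicate 1, and 5, without control replicate 1, and 4 without either of the other libraries.

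Among the 16 cytokine receptor genes tested 4 rose and 4 fell, and the median log2 change was -0.27, and nearer to 0 at -0.02 and -0.14 without control replicate 1 and unstimulated replicate 2. Each direction held 25.0% of the members, against 10.1% risen and 11.1% fallen over all genes tested. *Il2ra*, for the alpha chain that gives the IL-2 receptor its high affinity (CD25), went from 0.708 and 0.894 to 52.4 and 59.2 FPKM, 69.6 times as high by the group means (4.98 ± 0.43; adjusted p = 0.0337). The beta chain gene *Il2rb* rose from 18.8 and 12.98 to 39.4 and 38.8 FPKM (1.27 ± 0.37), and the shared gamma chain gene *Il2rg* did not pass at 109 and 148 against 68.3 and 122 FPKM. *Il12rb1* rose from 0.759 and 0.601 to 13.8 and 4.83 FPKM, and *Il15ra* was listed at 0 in unstimulated cells and at 4.52 and 6.22 FPKM in control cells. The IL-7 receptor gene *Il7r*, which resting T cells need to survive, fell from 59.5 and 56.95 to 26.3 and 16.5 FPKM (-1.44 ± 0.38). The IL-6 receptor chains *Il6st*, at 22.2 and 19.8 against 4.35 and 4.71 FPKM, and *Il6ra*, at 7.54 and 10.98 against 0 and 0.244 FPKM and facing *Gm42809*, fell as well, as did the TGF-beta receptor gene *Tgfbr2*, from 15.7 and 19.7 to 5.04 and 3.25 FPKM. Without either unstimulated replicate 2 receptor genes fell.

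Of 17 costimulatory and inhibitory receptor genes tested, 10 rose and 3 fell, and the median log2 change was 1.76. Among the costimulators of the tumour necrosis factor receptor family, *Tnfrsf9* (4-1BB) was at 0 and 1.903 FPKM in unstimulated and 158 and 156 FPKM in control cells (6.53 ± 0.61; adjusted p = 0.0351). *Tnfrsf4* (OX40) was listed at 0 in both unstimulated libraries and at 44.5 and 43.8 FPKM in the control libraries (adjusted p = 0.0337), and *Tnfrsf18* (GITR), which faces *Gm16008*, rose from 6.32 and 1.45 to 76.1 and 57.2 FPKM. *Cd27*, of the same family and carried by resting T cells, fell from 315 and 143 to 97.3 and 91.3 FPKM (-1.16 ± 0.44). Several inhibitory receptors rose alongside, while another, *Btla*, fell. *Ctla4*, which competes with CD28 for its ligands, was at 0 and 1.99 against 109 and 48.4 FPKM (5.42 ± 0.74; adjusted p = 0.0496). *Pdcd1* (PD-1), *Lag3* and *Tigit* were each listed at 0 in both unstimulated libraries, and stood at 14.2 and 17.4, 18.3 and 19.9 and 9.23 and 25.1 FPKM in the control libraries. *Havcr2* (TIM-3) was listed at 0 in 3 libraries and at 1.19 FPKM in control replicate 2, below the limit for testing. *Cd28* itself rose from 11.7 and 13.4 to 49.02 and 41.1 FPKM (1.76 ± 0.36), and *Cd44*, for the hyaluronan receptor that marks antigen-experienced cells, from 6.11 and 6.62 to 18.3 and 23.4 FPKM (1.56 ± 0.41). The early activation marker *Cd69* did not pass, at 62.1 and 79.4 FPKM in unstimulated and 44.4 and 47.6 FPKM in control cells, lower in both control libraries. *Btla* and *Cd226* fell, from 18.8 and 16.1 to 4.26 and 8.67 FPKM and from 21.3 and 17.4 to 3.64 and 7.87 FPKM. The count of risen receptors was 8 or 9 whichever library was left out, while the count of those that fell was between 2, without control replicate 2, and 1, without unstimulated replicate 2, and none of the 3 passed without unstimulated replicate 1 or control replicate 1.

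Of 20 genes of the T cell receptor and its first signalling steps, 2 rose and 4 fell, with a median log2 change of -0.33. Most leaned lower, with 13 lower in both runs and 4 higher in both. The medians within runs 1 and 2 were -0.41 and -0.33, and the median change over all genes tested was -0.10. The invariant chain genes *Cd3d*, *Cd3g* and *Cd247*, which faces *Pou2f1*, had log2 changes of -0.56 ± 0.30, -0.19 ± 0.36 and -0.11 ± 0.37, and the kinase genes *Lck* and *Zap70* of -0.37 ± 0.27 and 0.90 ± 0.39; these did not pass. *Cd8a* fell by the rule (-1.08 ± 0.37), and *Cd8b1*, at 143 and 271 against 50.3 and 122 FPKM, did not pass. The kinase genes *Txk* and *Fyn* fell from 12.97 and 11.4 to 1.59 and 0.617 and from 74.6 and 48.7 to 21.2 and 25.6 FPKM. *Cd5* and *Cd6*, for receptors that dampen TCR signalling, rose from 13.97 and 18.6 to 31.5 and 39.8 and from 43.2 and 18.4 to 118 and 119.5 FPKM. With 1 library left out, 2 genes rose without either unstimulated replicate, 1 without control replicate 1 and none without control replicate 2, and 2 fell in each case except that of control replicate 1, where 1 did.

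Of 26 factors of the naive and quiescent state that were tested 12 fell and 1 rose, and the median log2 change was -1.06. *Klf2*, the transcription factor that sustains quiescence and drives the genes of lymphocyte egress, was at 52.7 and 76.5 FPKM in the unstimulated libraries and at 0 and 0.524 FPKM in the control libraries (log2 change -5.71 ± 0.51; adjusted p = 0.0339). *Tcf7* and *Lef1*, for the TCF-1 and LEF-1 factors of naive and memory cells, fell from 95.1 and 148 to 19.98 and 33.5 FPKM (-2.15 ± 0.42) and from 78.98 and 80.05 to 19.7 and 22.1 FPKM (-1.88 ± 0.31); *Lef1* faces *Gm43352*. The groups did not overlap in any of these genes. The antiproliferative genes *Btg1* and *Tob1* fell from 65.96 and 59.3 to 11.9 and 17.9 and from 14.6 and 17.5 to 4.6 and 2.15 FPKM. *Txnip*, which restrains glucose uptake and faces *Gm15441*, fell from 65.01 and 63.9 to 21.1 and 17.02 FPKM, and *Pik3ip1*, an inhibitor of PI3 kinase that faces *Gm12592*, from 43.02 and 33.03 to 14.98 and 15.2 FPKM. *Tsc22d3*, *Igfbp4* and *Klf3*, which faces *Gm20033*, fell by 2.800, 2.78 and 2.56 on the log2 scale. The forkhead factor *Foxo1*, facing *Gm20402*, was at 9.74 and 10.5 against 4.27 and 4.48 FPKM (-1.05 ± 0.46), and did not pass. *Bach2*, *Btg2* and *Satb1* had log2 changes of 0.05 ± 0.55, -0.05 ± 0.51 and -0.38 ± 0.37; *Bach2* faces *Bach2os* and *Satb1* faces *Gm6934*. *Vsir*, for the inhibitory receptor VISTA, was the only member that rose, from 22.6 and 18.8 to 58.8 and 63.8 FPKM (1.52 ± 0.33). Of the 26 members, 9 face another gene, and 6 of the other 17 fell. Leaving out 1 library left 8 genes fallen without unstimulated replicate 2, 9 without unstimulated replicate 1, 11 without control replicate 1 and 10 without control replicate 2.

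Of 17 receptors for homing and chemotaxis that were tested 8 fell and 1 rose, with a median log2 change of -1.09. *S1pr1*, for the sphingosine 1-phosphate receptor that lets T cells leave lymphoid organs, went from 45.6 and 50.6 to 1.499 and 2.001 FPKM (-4.16 ± 0.42; adjusted p = 0.0382). *Ccr7*, a chemokine receptor that guides T cells into lymph nodes, was the member that rose, from 20.7 and 42.2 to 84.5 and 111 FPKM (1.68 ± 0.45), with both control libraries above both unstimulated libraries. The gut homing receptor *Ccr9*, facing *Gm17021*, fell from 26.3 and 27.7 to 4.16 and 1.29 FPKM, the integrin gene *Itgb7* from 89.7 and 79.3 to 36.8 and 28.04 FPKM, and *Itga4*, facing *Cerkl*, from 56.03 and 50.5 to 26.2 and 14.2 FPKM. *Cxcr4*, *Cxcr5* and *Ccr2*, which B cells or myeloid cells also carry, fell from 25.03 and 23.7 to 6.45 and 3.17, from 16.2 and 17.8 to 3.92 and 1.58 and from 4.28 and 9.05 to 0.235 and 0 FPKM; *Cxcr5* faces *Bcl9l*. *Cxcr3*, a receptor of effector cells, did not pass at 7.88 and 1.44 against 1.09 and 1.29 FPKM, nor did the integrin genes *Itgal* (0.34 ± 0.35) and *Itgb1* (0.40 ± 0.33). *Ccr7* did not pass without unstimulated replicate 1, control replicate 1 or control replicate 2, at log2 changes of 1.18, 1.87 and 1.48. Without unstimulated replicate 1 only 2 members fell, and 5 fell without unstimulated replicate 2, 7 without control replicate 1 and 6 without control replicate 2.

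Of 30 transcription factors of activation that were tested 10 rose and 1 fell, with a median log2 change of 0.97. Of these members 10 face another gene, and 8 of the other 20 rose. *Nr4a2* and *Nr4a3*, for nuclear receptors that TCR signalling induces, had the largest changes of the list, and all 3 members of the NR4A family rose. *Nr4a3* went from 0.593 and 0.46 to 28.2 and 24.99 FPKM (4.17 ± 0.48; adjusted p = 0.0415), *Nr4a2* from 0 and 0.293 to 25.6 and 33.8 FPKM (4.74 ± 0.52; adjusted p = 0.0395) and *Nr4a1* from 2.83 and 3.25 to 28.1 and 25.9 FPKM (2.79 ± 0.42). *Irf4*, whose level follows the strength of TCR signalling, rose from 3.79 and 3.12 to 38.2 and 39.3 FPKM (3.16 ± 0.40; adjusted p = 0.0449). All 4 of these genes had control libraries that were close to each other. *Nfil3*, *Bhlhe40* and *Irf8* rose by log2 changes of 2.54 ± 0.68, 2.41 ± 0.40 and 2.24 ± 0.55, *Bhlhe40* facing *0610040F04Rik*. *Nfkb1*, *Runx3* and *Stat3* rose by 1.47 ± 0.30, 1.51 ± 0.54 and 2.15 ± 0.68; *Stat3* faces *Stat5a*. The regulators of effector fate *Tbx21* (T-bet) and *Eomes*, which faces *Gm33460*, were at 6.15 and 4.57 against 7.47 and 10.3 FPKM and at 26.9 and 12.7 against 10.3 and 5.73 FPKM, and did not pass. *Myc*, which drives cell growth, was at 11.1 and 16.5 FPKM in unstimulated and 20.8 and 43.1 FPKM in control cells (1.09 ± 0.51) and did not pass, and *Hif1a*, facing *Gm15283*, was at 9.16 and 45.5 against 75.2 and 91.7 FPKM. *Prdm1* was listed at 0 in 3 libraries and at 0.865 FPKM in control replicate 2. *Runx1*, which faces *Gm26626*, fell from 3.56 and 10.02 to 0 and 0.86 FPKM. The number that rose was 6 without either control replicate, and 8 and 9 without unstimulated replicates 1 and 2.

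Immediate early genes are those that a stimulus induces within minutes and for a short time. Of 25 tested, 9 fell from the fresh to the stimulated cells and 3 rose, and the median log2 change was -1.36. *Fos*, for a subunit of the factor AP-1, was at 40.1 and 37.3 FPKM in the unstimulated and 0 and 1.27 FPKM in the control libraries (-4.72 ± 0.59; adjusted p = 0.0434). Its partner *Jun*, facing *Junos*, was at 21.3 and 22.6 against 8.33 and 3.42 FPKM (-1.84 ± 0.53), and *Fosb* at 17.2 and 5.96 against 0.744 and 0.572 FPKM. *Dusp1*, a phosphatase that ends MAP kinase signalling, fell from 13.1 and 22.2 to 0 and 0.887 FPKM, and *Ppp1r15a* from 45.6 and 36.4 to 5.69 and 5.77 FPKM. The RNA-destabilising proteins of the tristetraprolin family fell together: *Zfp36*, facing *Gm44710*, by 2.39, *Zfp36l2* by 2.22 and *Zfp36l1*, facing *Gm26669*, by 1.36 on the log2 scale. The 3 members that rose were *Egr2*, *Fosl2* and *Rgs1*. *Egr2* was at 0 and 1.55 FPKM in unstimulated and 5.02 and 6.67 FPKM in control cells, *Fosl2* rose from 1.35 and 3.895 to 10.1 and 9.85 FPKM and *Rgs1* from 4.15 and 4.43 to 31.1 and 22.1 FPKM. *Egr1* (0.71 ± 0.47) and *Junb* (-0.13 ± 0.28), which faces *Prdx2*, did not pass. The heat shock genes *Hspa1a*, facing *Gm20481*, and *Hspa1b* were at 2.3 and 23.3 and at 2.07 and 46.9 FPKM in the unstimulated libraries and at 0.345 and 0.686 and 5.45 and 1.33 FPKM in the control libraries. They were therefore high in unstimulated replicate 2 alone, and did not pass. Without unstimulated replicate 1, control replicate 1 or control replicate 2 a single member rose, and between 6 and 8 members fell whichever library was left out.

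**Figure D3:**
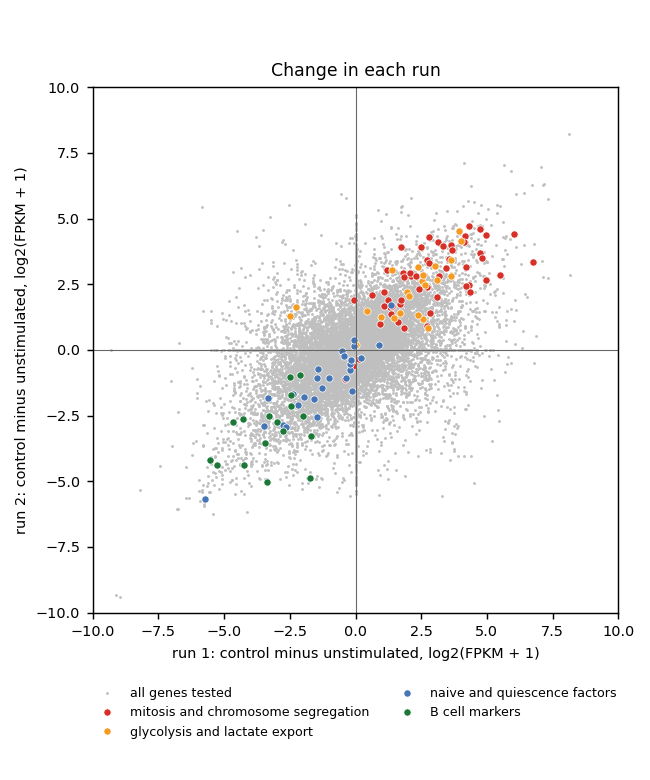
Change of every tested gene in run 1 (x axis) and run 2 (y axis), control minus unstimulated in log2(FPKM + 1), with 4 lists coloured. Genes of mitosis (red) and glycolysis (orange) lie mostly in the upper right, and naive factors (blue) and B cell markers (green) mostly in the lower left, in a cloud of grey points for all genes.

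The largest coordinated rise was in mitosis and chromosome segregation, where 45 of 54 genes tested rose and the others did not pass, with a median log2 change of 2.69 and medians of 2.73 and 2.82 within runs 1 and 2. Of these, 46 were at least 2-fold higher in both runs. The mitotic kinase genes *Cdk1* and *Aurkb* were listed at 0 in both unstimulated libraries and stood at 64.8 and 20.5 and 25.8 and 23.2 FPKM in the control libraries (adjusted p = 0.0488 and 0.0403). The same held for *Ccnb2*, a cyclin partner of CDK1, at 17.01 and 19.3 FPKM, and for the kinetochore gene *Spc25* at 30.6 and 19.9 FPKM. *Top2a*, for the topoisomerase that untangles sister chromatids, was at 0.337 and 9.97 FPKM in unstimulated and 143 and 112 FPKM in control cells (5.06 ± 1.03). *Kif11*, for the motor that separates the spindle poles, rose from 0.69 and 0.964 to 28.9 and 32.6 FPKM (4.12 ± 0.46; adjusted p = 0.0412), and *Cenpa*, for the histone of the centromere, from 3.76 and 3.09 to 55.6 and 43.8 FPKM (3.51 ± 0.40; adjusted p = 0.0415). *Cdc20*, which activates the anaphase-promoting complex and faces *Elovl1*, was at 0 and 1.57 against 27.4 and 28.2 FPKM. *Mki67*, the proliferation marker Ki-67, was already present in the fresh cells and rose from 10.5 and 7.64 to 49.3 and 60.0 FPKM (2.47 ± 0.38). *Smc4* (-0.35 ± 0.35), *Kif22* (-0.10 ± 0.36), which faces *Gm31749*, and *Pttg1* (-0.75 ± 0.63) were the members with a change below 0, and none of them passed. Of the 54 members 13 face another gene, and 36 of the other 41 rose. The number that rose was 35 without either unstimulated replicate, 30 without control replicate 1 and 27 without control replicate 2.

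In DNA replication 23 of 48 genes rose and 1 fell, with a median log2 change of 1.89. Both subunits of ribonucleotide reductase, which makes deoxynucleotides, were among them, *Rrm2* at 0 and 1.18 against 51.4 and 42.6 FPKM (5.02 ± 0.57; adjusted p = 0.0415) and *Rrm1* from 1.56 and 2.01 to 35.3 and 45.8 FPKM (3.89 ± 0.44; adjusted p = 0.0412). The MCM2-7 helicase that opens origins rose nearly as a unit. *Mcm2*, *Mcm3*, *Mcm4*, *Mcm5* and *Mcm6* had log2 changes of 2.29 ± 0.44, 1.998 ± 0.34, 1.84 ± 0.40, 2.78 ± 0.41 and 1.99 ± 0.35, and only *Mcm7*, which faces *Ap4m1*, did not pass (0.53 ± 0.33). The licensing factor gene *Cdc6* and *Mcm10* were listed at 0 in both unstimulated libraries, and at 22.9 and 13.4 and 10.5 and 10.3 FPKM in the control libraries. *Pcna*, the sliding clamp of the polymerase, rose from 32.1 and 39.3 to 71.2 and 107 FPKM (1.27 ± 0.35). *Rfc2*, for a subunit of the clamp loader, fell from 63.8 and 49.6 to 28.6 and 22.6 FPKM and faces *Lat2*, and *Gins2*, which faces *Gse1*, was at 339 and 315 FPKM in unstimulated cells, far above its partners in the GINS complex *Gins1*, at 0 and 0, and *Gins3*, at 2.73 and 0.361 FPKM. Of the 48 members 17 face another gene, and 19 of the other 31 rose. Without 1 library the count was 13 and 14 for unstimulated replicates 1 and 2, 18 for control replicate 1 and 15 for control replicate 2.

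The regulators of G1 were divided, with 5 of 19 risen and 3 fallen. These shares were 26.3% and 15.8%, against 10.1% and 11.1% of all genes tested. *E2f2* rose from 1.11 and 1.17 to 8.43 and 7.46 FPKM, *E2f8*, facing *Gm2788*, was at 0.9 and 0 against 13.9 and 8.21 FPKM, and the inhibitor gene *Cdkn1a* (p21), facing *AC167363.2*, at 1.59 and 0 against 20.4 and 13.03 FPKM. *Cdk4*, which faces *Tspan31*, was at 4.61 and 105 FPKM in the unstimulated libraries, which differed widely, and at 379 and 389.6 FPKM in the control libraries. The retinoblastoma gene *Rb1* fell from 603 and 437 to 61.7 and 50.2 FPKM (adjusted p = 0.0351), but faces *Rcbtb2*, which went from 6.25 and 9.904 FPKM to a listing at 0. *Ccne1* fell from 148 and 83.4 to 22.8 and 25.5 FPKM, and the D cyclin genes *Ccnd2*, facing *Gm43126*, and *Ccnd3*, facing *Bysl*, had log2 changes of -0.01 ± 0.39 and -0.10 ± 0.48 and did not pass. Of the 19 members 10 face another gene, and only 1 of the other 9 rose and 1 fell. Without control replicate 2, 3 rose and 1 fell. The genes of core and linker histones, which dividing cells need in bulk, could hardly be measured. Of 67 listed, 10 reached 1 FPKM, of which 8 face another gene, 3 rose and 1 fell, and the highest value of a histone gene in a control library was 15.1 FPKM, that of *Hist1h4b*, which faces *4930558J22Rik*, in replicate 2. With the replicate number as a block 1 histone gene rose.

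Promoter sequences were read for the genes of mitosis and replication that rose, since many genes of these lists rose. In the 250 bases before each annotated start in RefSeq (GRCm38.p6), the letters TTTGAA of the cell cycle genes homology region (CHR) and the CCAAT box were searched on both strands. Of the 45 mitosis genes that rose 39 were matched, with 44 promoters, of which 19 (43.2%) held TTTGAA and 34 (77.3%) CCAAT. Among the 10989 promoters of tested genes the shares were 11.3% and 34.9%, and among all 32851 promoters 16.0% and 33.8%. Over all 54 mitosis genes tested, whether they rose or not, 40.0% and 74.0% of 50 promoters held these letters. The shares therefore describe the list, and a difference between its risen and other genes was not tested. The stretches below come from some of the mitosis genes named above. They were chosen to hold these letters, so they do not show how common the letters are. Each is written 5′ to 3′ on the strand of the gene, with the CHR letters, the CCAAT box or their complements in capitals.
Cdk1: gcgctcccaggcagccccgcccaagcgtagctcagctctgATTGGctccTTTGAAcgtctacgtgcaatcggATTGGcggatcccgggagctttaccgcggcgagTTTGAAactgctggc
Ccnb2: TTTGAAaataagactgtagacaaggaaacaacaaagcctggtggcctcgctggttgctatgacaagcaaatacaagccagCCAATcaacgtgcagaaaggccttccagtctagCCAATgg
Cdc20: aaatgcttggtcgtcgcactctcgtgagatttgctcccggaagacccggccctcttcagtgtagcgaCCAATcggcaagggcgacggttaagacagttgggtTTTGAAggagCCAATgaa
Top2a: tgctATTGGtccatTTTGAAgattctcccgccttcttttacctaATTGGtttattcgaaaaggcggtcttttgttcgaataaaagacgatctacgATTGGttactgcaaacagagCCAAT
Kif11: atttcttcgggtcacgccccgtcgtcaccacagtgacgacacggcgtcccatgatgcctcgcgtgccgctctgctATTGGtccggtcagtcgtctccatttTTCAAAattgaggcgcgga
They lie at chr10:69352913-69353032 for *Cdk1*, chr9:70421602-70421721 for *Ccnb2*, chr4:118437344-118437463 for *Cdc20*, chr11:99024263-99024382 for *Top2a* and chr19:37376262-37376381 for *Kif11*. In *Cdk1* and *Cdc20* the TTTGAA nearest to the start begins 15 and 18 bases before it. The E2F letters TTTCCCGC and TTTGGCGC were rarer. Of the 22 promoters of replication genes that rose, 1 (4.55%) held the first and 3 (13.6%) the second, against 1.73% and 0.801% of the promoters of tested genes and 0.895% and 0.417% of all promoters. Over all 48 replication genes tested, 3 of 44 promoters (6.82%) held the first and 3 (6.82%) the second.
Mcm6: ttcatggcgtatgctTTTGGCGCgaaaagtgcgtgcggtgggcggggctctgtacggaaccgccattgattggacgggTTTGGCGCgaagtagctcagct
Mcm5: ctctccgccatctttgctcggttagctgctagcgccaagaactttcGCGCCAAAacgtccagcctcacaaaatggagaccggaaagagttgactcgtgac
Cdc6: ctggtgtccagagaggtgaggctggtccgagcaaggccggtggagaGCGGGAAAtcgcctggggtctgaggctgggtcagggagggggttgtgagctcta
Capitals mark the E2F letters or their complement in these 3 stretches, which were also chosen to hold them. The stretches lie at chr1:128359731-128359830, chr8:75109314-75109413 and chr11:98907967-98908066. The other letters searched gave shares nearer to those of the promoters of tested genes or rested on few promoters. CACGTG was in 8.0% of 25 promoters of glycolysis genes that rose and 8.33% of 12 promoters of ribosome biogenesis genes that rose, against 8.21% of tested genes and 6.02% of all promoters. ACGTG, which overlaps it, was in 40.0% of the 25 glycolysis promoters against 21.7% and 16.6%. Over all 23 glycolysis genes tested, risen or not, ACGTG was also in 40.0% of 35 promoters. TCACNCCAC, the sterol response letters, was in 8.33% of 12 promoters of lipid synthesis genes that rose against 1.05% of tested genes and 1.05% of all promoters. TGTTTAC, the forkhead letters, was in 10.5% of 19 promoters of naive factors that fell against 2.22% and 3.17%, and in none of 5 promoters of homing receptors that fell. TGACGTCA was in 2 of 8 promoters of immediate early genes that fell against 2.58% and 1.55%, TGANTCA in none of 7 promoters of secreted mediators that rose against 4.26% and 6.75%, and TGATGCAA in none of 13 promoters of amino acid genes that rose against 0.546% and 0.791%. These shares describe letters in a window and not sites that were shown to be bound.

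Genes of glycolysis rose in 18 of 23 cases, 78.3% against 10.1% of all genes tested, with a median log2 change of 2.08. Every enzyme step from glucose uptake to lactate export had at least 1 gene that rose. The glucose transporters *Slc2a1*, facing *Gm12868*, and *Slc2a3* went from 2.601 and 6.59 to 20.2 and 16.2 FPKM and from 5.98 and 5.85 to 59.6 and 42.2 FPKM (log2 changes 1.87 ± 0.55 and 2.89 ± 0.39). The hexokinase gene *Hk2* rose from 1.87 and 2.37 to 15.6 and 19.9 FPKM, and all of *Aldoa*, *Tpi1*, *Pgk1*, *Pgam1* and *Pkm* had an adjusted p under 0.05. *Tpi1*, for triosephosphate isomerase, was the largest at 10.6 and 9.44 FPKM in unstimulated and 174 and 238 FPKM in control cells (4.22 ± 0.34; adjusted p = 0.0337), and *Pgk1* went from 9.33 and 14.7 to 164 and 278 FPKM (4.07 ± 0.43; adjusted p = 0.0384). *Ldha*, which turns pyruvate into lactate, rose from 52.4 and 46.3 to 276 and 424 FPKM (2.77 ± 0.33; adjusted p = 0.0421), and the lactate exporters *Slc16a1* and *Slc16a3* rose by 1.86 ± 0.69 and 2.201 ± 0.65. *Ldhb*, the isoform that favours the reverse reaction, was at 4.58 and 0 against 0 and 1.45 FPKM and did not pass. *Gapdh*, widely used as a constant reference, was itself among the genes that rose, from 9.84 and 18.3 to 71.7 and 33.6 FPKM (1.79 ± 0.54), and faces *Iffo1*. *Actb*, the other usual reference, was at 954 and 962 and 463 and 1208 FPKM (-0.36 ± 0.48; adjusted p = 0.694), and control replicate 1 lay well below the other libraries. The count of glycolysis genes that rose was 13 and 16 without unstimulated replicates 1 and 2, and 12 without either control replicate.

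Mitochondrial metabolism was covered by 2 lists. In the tricarboxylic acid cycle and pyruvate entry 4 of 25 genes rose and the others did not pass, which set 16.0% against the 10.1% of all genes, and the median log2 change was 0.61, or 0.34 without unstimulated replicate 1. *Dld* and *Dlat*, for subunits of the pyruvate dehydrogenase complex, rose from 14.1 and 12.01 to 56.4 and 37.9 and from 0.739 and 4.17 to 9.86 and 10.3 FPKM, the malate dehydrogenase gene *Mdh2* from 19.5 and 22.5 to 41.2 and 72.6 FPKM, and the pyruvate carrier gene *Mpc1*, facing *4930506C21Rik*, from 2.69 and 0.905 to 8.19 and 19.01 FPKM. *Cs*, for citrate synthase, did not pass (0.49 ± 0.38). Without control replicates 1 and 2 the risen genes numbered 2 and 1. In fatty acid oxidation 4 of 20 rose (20.0%) and 1 fell, with a median of 0.19, which was 0.46 without control replicate 1 and fell below 0, at -0.17, without control replicate 2. The electron transfer flavoprotein genes *Etfa* and *Etfb* and *Etfdh*, which faces *4930579G24Rik*, rose by 1.62 ± 0.55, 2.81 ± 0.52 and 1.497 ± 0.35, while *Cpt1a*, the gate of mitochondrial fatty acid import, was at 9.12 and 7.14 against 3.27 and 6.59 FPKM, and *Hadhb* fell from 8.45 and 11.2 to 0.215 and 3.55 FPKM. None of the 37 mitochondrially encoded genes had a value above 0 in any of the 4 libraries. With the replicate number as a block, 4 genes of fatty acid oxidation fell instead of 1, and 2 rose without either unstimulated replicate or without control replicate 2.

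Biosynthetic pathways held many risen genes and none that fell. Of 30 genes of cholesterol and fatty acid synthesis 16 rose and the others did not pass, with a median log2 change of 1.71. Along the mevalonate pathway *Hmgcs1*, which faces *Gm48342*, rose from 9.77 and 8.82 to 53.1 and 56.1 FPKM (2.43 ± 0.35), and *Fdps* from 4.45 and 1.01 to 46.04 and 39.4 FPKM (3.72 ± 0.61). *Cyp51*, facing *Akap9*, was at 0 and 2.42 against 46.3 and 36.5 FPKM, and *Pmvk* was listed at 0 in unstimulated cells and at 13.6 and 38.2 FPKM in control cells. *Scd2*, for a desaturase that makes monounsaturated fatty acids, had the smallest adjusted p of the list, at 5.61 and 4.68 against 89.5 and 62.8 FPKM (3.63 ± 0.39; adjusted p = 0.0385). The sensor gene *Srebf2* (0.64 ± 0.37) and *Srebf1* (-0.33 ± 0.44), facing *Rai1*, did not pass. Leaving out 1 library left 9 to 11 risen genes, the lowest without control replicate 2.

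In amino acid transport, serine synthesis and one-carbon metabolism 13 of 21 genes rose, with a median log2 change of 1.73. The serine synthesis enzymes *Phgdh*, *Psat1* and *Psph*, which faces *Cct6a*, rose together, at 12.1 and 22.6 against 89.7 and 79.5, 0 and 2.01 against 31.2 and 29.8 and 21.7 and 40.02 against 76.9 and 129 FPKM. *Asns*, for asparagine synthetase, was listed at 0 in unstimulated cells and at 9.95 and 18.04 FPKM in control cells. Of the large neutral amino acid transporter, the light chain gene *Slc7a5* rose from 9.54 and 3.41 to 33.7 and 44.9 FPKM (2.55 ± 0.56), and the heavy chain gene *Slc3a2* did not pass (-0.11 ± 0.59). The mitochondrial one-carbon enzymes *Shmt2* and *Mthfd2* rose by 2.03 ± 0.64 and 1.91 ± 0.73, whereas cytosolic *Shmt1*, facing *Smcr8*, was at 0.11 ± 0.40 and did not pass. The risen genes numbered 2 without control replicate 1 and 5 without control replicate 2, and 9 and 10 without unstimulated replicates 1 and 2. In nucleotide synthesis 6 of 22 rose, with a median of 0.77, or 0.47 without control replicate 2 and 1.25 without control replicate 1, and medians of 0.17 and 1.15 within runs 1 and 2. Among them were *Ctps*, for CTP synthase, at 0 and 3.78 against 9.29 and 16.1 FPKM, and *Prps1*, at 0 and 5.25 against 20.6 and 16.6 FPKM. Here 1 gene rose without either control replicate, and 4 and 3 without unstimulated replicates 1 and 2.

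Part of the ribosome biogenesis genes rose, and few ribosomal protein genes passed the test. Of 50 biogenesis genes 13 rose and the others did not pass, with a median log2 change of 0.85. Of these members 13 face another gene, and 12 of the other 37 rose. *Npm1* and *Ncl*, for the abundant nucleolar proteins nucleophosmin and nucleolin, rose from 230.0 and 246 to 653 and 762 FPKM (1.56 ± 0.23) and from 52.5 and 53.95 to 99.3 and 137 FPKM (1.12 ± 0.31), and *Gar1*, of the box H/ACA particles, from 7.58 and 15.6 to 63.4 and 50.9 FPKM (2.27 ± 0.46). Between 4 and 10 rose with 1 library left out, the lowest without control replicate 2, 5 without control replicate 1 and 6 without unstimulated replicate 1. Of 78 ribosomal protein genes 3 rose and 1 fell, with a median of 0.24, and these shares lie below the 10.1% and 11.1% of all genes. Without unstimulated replicate 2, 5 of them rose, and without unstimulated replicate 1, 2 fell and the median was -0.10. Of the 78 members 17 face another gene, and 3 of the other 61 rose. *Rps27l*, a p53-responsive relative of a ribosomal protein gene, rose from 33.3 and 49.4 to 205 and 241 FPKM (adjusted p = 0.0488), as did *Rpl22* and *Rps2* (1.804 ± 0.31 and 1.11 ± 0.23).

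Genes of protein folding in the endoplasmic reticulum rose in 7 of 24 cases and fell in 1, with a median log2 change of 0.87. *Xbp1*, the transcription factor of secretory cells, rose from 1.94 and 6.06 to 14.1 and 20.9 FPKM (1.998 ± 0.61), *Hyou1* from 3.21 and 5.09 to 22.7 and 18.6 FPKM and *Atf4*, the factor of the amino acid response, from 19.6 and 31.2 to 71.99 and 48.0 FPKM (1.21 ± 0.41). The chaperone gene *Hspa5* (BiP) did not pass (0.55 ± 0.33), and *Dnajb9* fell from 12.4 and 14.2 to 2.33 and 1.08 FPKM (-2.44 ± 0.53). Without 1 library 1 to 5 genes rose, the lowest without control replicate 2. Of 36 interferon-stimulated genes 8 rose and 1 fell, with a median of 0.66 that was 0.09 without unstimulated replicate 1, 0.39 without control replicate 2 and 0.99 without unstimulated replicate 2. *Igtp*, *Gbp2* and *Iigp1*, for GTPases that interferon-gamma induces, rose by 2.103 ± 0.43, 1.72 ± 0.63 and 2.19 ± 0.72, and *Isg15* was at 0 and 4.196 against 14.4 and 36.8 FPKM. The type I interferon targets *Ifit3* and *Oasl2* were at 3.18 and 3.44 against 0 and 0.586 and 8.46 and 2.82 against 0 and 2.77 FPKM and did not pass, and *Irf1*, facing *Gm17334*, fell from 72.7 and 53.7 to 19.1 and 30.6 FPKM. Without unstimulated replicate 1 or control replicate 1 the count of risen genes was 2, without control replicate 2 it was 1, and without unstimulated replicate 2 it was 6. Among regulators of apoptosis 3 of 15 rose, a share of 20.0% against 10.1% of all genes tested. They were *Bcl2l1* (BCL-XL), at 0 and 2.67 against 14.3 and 12.3 FPKM, *Bcl2a1d*, a member of a family of near-identical copies among which reads may be shared, at 1.86 and 0 against 20.3 and 19.7 FPKM, and the death-promoting *Bcl2l11* (BIM), from 6.27 and 6.68 to 21.02 and 13.9 FPKM. *Bcl2*, facing *D630008O14Rik*, and *Mcl1* had log2 changes of -0.35 ± 0.37 and -0.72 ± 0.34 and did not pass. With the replicate number as a block 5 rose, while without control replicate 1 no gene passed, and 1 passed without control replicate 2.

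**Figure D4:**
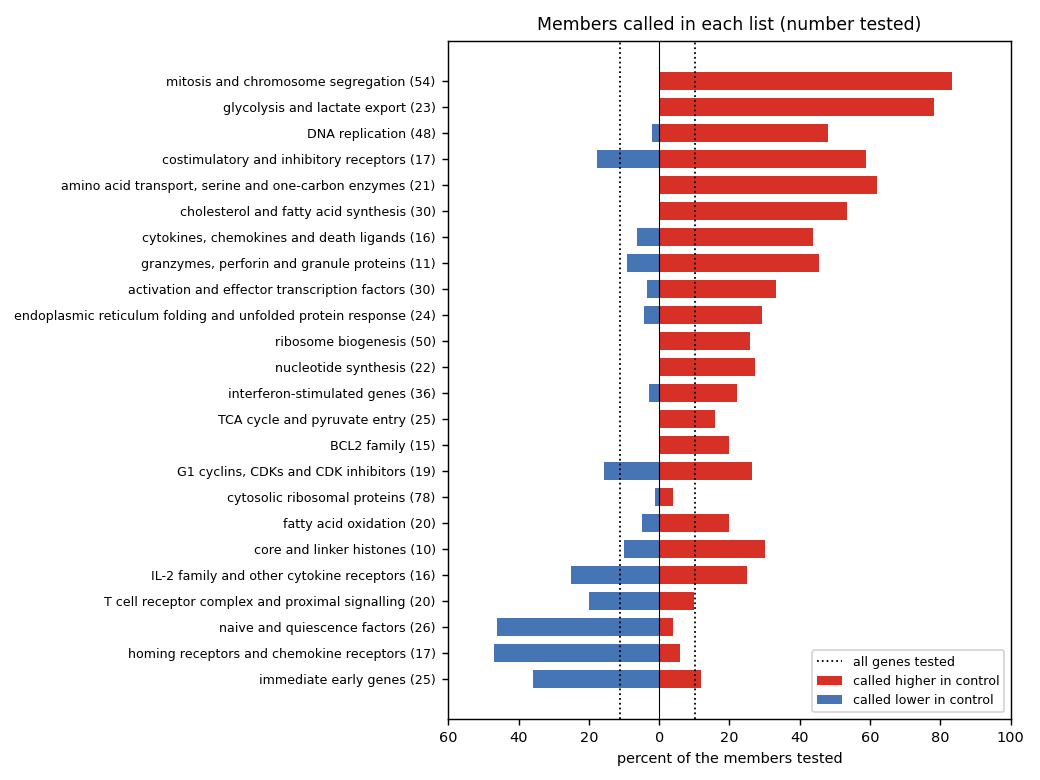
Percent of the tested members of each of 24 gene lists that rose (red, to the right) or fell (blue, to the left) in control against unstimulated cells, with the number tested in brackets and the lists ordered by their median log2 change. Dotted lines mark the 10.1% and 11.1% of all genes tested; mitosis (45 of 54) and glycolysis (18 of 23) lie highest, and naive factors, homing receptors and immediate early genes have the largest shares that fell.

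Over all protein-coding genes that reached a mean of 5 FPKM, the 12 largest rises were ranked by the smaller of the changes in the 2 runs. They were led by *Gzmb*, followed by *Fars2*, *Fam166a*, *Tnfrsf9*, *Tnfrsf4*, *Exosc9*, *Il2ra*, *Nrn1*, *Nr4a2*, *Lrrc41*, *Tfrc* and *Aurkb*. Of these, *Tfrc*, for the transferrin receptor that imports iron, rose from 2.32 and 3.01 FPKM to 82.7 and 105.9 FPKM (4.695 ± 0.39; adjusted p = 0.0337). *Nrn1*, for neuritin, was listed at 0 in unstimulated cells and at 26.1 and 44.8 FPKM in control cells. It faces *Fars2*, a mitochondrial tRNA synthetase gene that went from 20.5 and 22.9 FPKM to 2244 and 1873 FPKM. *Exosc9*, a gene of the RNA exosome, went from 34.6 and 30.7 FPKM to 1179 and 1309 FPKM, and faces the cyclin gene *Ccna2*, which rose from 21.9 and 21.96 to 55.2 and 69.4 FPKM. *Fam166a* went from 1.201 and 2.53 FPKM to 152 and 213 FPKM opposite the tubulin gene *Tubb4b*, which rose from 12.2 and 13.7 FPKM to 37.1 and 59.7 FPKM. *Lrrc41* rose from 4.04 and 3.39 FPKM to 140.6 and 113.1 FPKM opposite the DNA repair gene *Rad54l*, which also rose, from 22.2 and 40.7 to 63.3 and 75.1 FPKM. In each of these pairs the 2 genes rose together.

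The 12 largest falls among protein-coding genes were those of *Cox6a2*, *Tyrobp*, *Klf2*, *Lyz2*, *Rasgrp2*, *Olfr164*, *C1qc*, *Fcamr*, *Gm10645*, *Fam83f*, *Vcam1* and *4930595D18Rik*. Among them *Tyrobp* and *Lyz2* are on the marker list of myeloid cells. *C1qc*, for a chain of complement C1q that macrophages make, was at 55.0 and 34.7 FPKM in unstimulated cells, and *Vcam1*, for an adhesion molecule of stroma and spleen macrophages that faces *Gm43109*, at 23.6 and 20.2 FPKM, and both were listed at 0 in control cells. *Fcamr*, for an Fc receptor for IgM and IgA, and *Olfr164*, annotated as an olfactory receptor, were at 33.0 and 29.5 FPKM and at 56.4 and 38.8 FPKM, and listed at 0 in control cells. *Rasgrp2*, for an exchange factor that activates the integrin regulator RAP1, fell from 78.0 and 98.9 FPKM to 0.65 and 1.33 FPKM (-5.501 ± 0.44; adjusted p = 0.0337), and its opposite partner *Gm14965* from 189.8 and 174.4 FPKM to 3.16 and 7.66 FPKM. *Cox6a2*, facing *Itgad*, *Gm10645*, facing *Tbc1d9*, *Fam83f*, facing *A430088P11Rik*, and *4930595D18Rik* were at 19.8 to 59.8 FPKM in unstimulated cells and listed at 0 in control cells.

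Genes that are not protein-coding gave the most extreme values. The 6 largest rises were *0610009E02Rik*, *Gm28513*, *Gm30177*, *Trav13d-3*, *Gm17114*, which faces *Slc6a9*, and *Gm44486*, and the 6 largest falls *Gm13568*, *Snord35b*, *4930538E20Rik*, *Gm15655*, *Gm24875* and *Klra13-ps*. The gene *0610009E02Rik* (chromosome 2, 26445696 to 26459390, plus strand, GRCm38) was listed at 0 in unstimulated cells and at 275.1 and 297.9 FPKM in control cells. *Gm13568* lies within it on the same strand (26457144 to 26458316) and showed the reverse, 547.6 and 636.7 FPKM in unstimulated cells and a listing at 0 in control cells. Both face the 3′ end of *Notch1*, which did not pass the test, at 6.81 and 14.9 against 4.46 and 5.83 FPKM. *Gm28513* rose from 7.46 and 18.3 FPKM to 1235 and 1540 FPKM opposite *Rgs16*, for a regulator of G protein signalling, which was at 2.75 and 0 against 71.4 and 50.1 FPKM. *Gm44486* was at 1.08 and 0 FPKM against 103.3 and 131.8 FPKM opposite *Hist1h2ag*, and *Trav13d-3*, a TCR alpha variable segment that faces *Gm30214*, was listed at 0 in unstimulated cells and at 84.3 and 61.4 FPKM in control cells. The values of *Gm44486* rest on 13.5 and 0 against 1195 and 3945 bases covered. Those of *Gm24875* in unstimulated cells rest on 503 and 1035 bases. FPKM divides by length, so in short genes such as these little signal gives a high value. *4930538E20Rik*, opposite the B cell factor gene *Bcl11a*, was at 109.8 and 66.2 FPKM, *Gm15655*, opposite *Maf*, at 107.9 and 136.3 FPKM, and *Klra13-ps*, a pseudogene of the NK receptor cluster, at 86.3 and 48.6 FPKM in unstimulated cells, against at most 1.08 FPKM in the control libraries.

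This pattern of opposite partners held widely. Genes annotated as antisense took 19.5% to 24.7% of all FPKM in the 4 libraries, and protein-coding genes 49.1% to 50.5%. Of the 1192 antisense genes tested 890 face a gene, and 743 of them face a gene that was tested too. Of the antisense genes that rose or fell, 199 face a tested gene, and in 171 of these pairs the partner changed in the same direction, in 86 it also rose or fell with it, and in 4 it passed in the opposite direction. Across the 743 pairs, which are not independent replicates, the log2 changes correlated at r = 0.54. The highest FPKM of all was that of *Gm11175*, at 17820 and 13820 FPKM in unstimulated and 37180 and 20740 FPKM in control cells, opposite the AP-1 gene *Jund* at 109.6 and 93.05 and 166 and 93.8 FPKM, and neither passed the test.

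**Figure D5:**
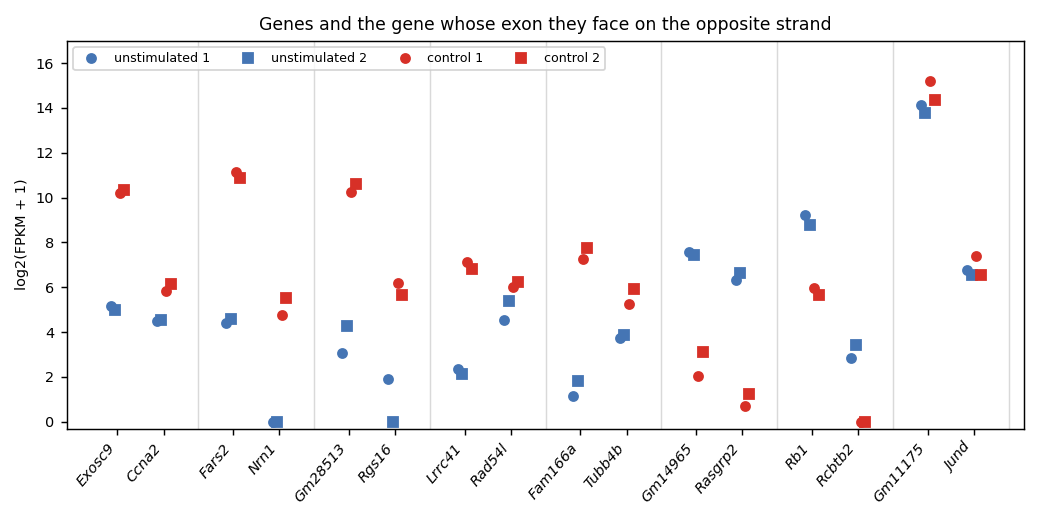
Levels of 8 genes, each followed by the gene whose exon it faces on the opposite strand, as log2(FPKM + 1) in the 4 libraries; blue marks unstimulated and red control cells, circles replicate 1 and squares replicate 2. In 7 of the pairs both genes change in the same direction, and in the pair of *Gm11175* and *Jund* the groups overlap for *Jund*.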

How the data were processed

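Of the 6 RNA-Seq libraries of the series, the 2 from unstimulated and the 2 from control CD8+ T cells of mice were used. Groups and replicate numbers came from the sample labels. Libraries were prepared from total RNA with the SMARTer Stranded Pico kit. The submitters' processing notes name Trimmomatic 0.36, HISAT2 and StringTie on mm10, and the file headers give StringTie 1.3.5, run on the transcripts of GENCODE M19 alone with the option --fr for stranded reads, whose match to the kit version was not tested. The authors deposited FPKM, TPM and coverage, the mean signal per base, for 137767 transcripts of 54446 genes; FPKM and TPM are normalised to library size and transcript length. A further deposited table was not used, since its 3 value columns carry no name of a sample. The SMF libraries are outside this comparison, and a few members of the gene lists are not reported here.

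FPKM was summed per gene, and bases covered were computed as coverage times transcript length. The files hold no read counts, and none were estimated from the bases covered. Counting error was therefore not estimated, and 0 means only that a gene is listed at 0. Bases covered show where a value rests on little signal, as for *Klf2* with 210 bases in control replicate 2. Gene types came from GENCODE M21, which matched 54409 identifiers. Genes that reached 1 FPKM in the mean of the 4 libraries were tested with limma 3.58.1 in R 4.3.3 on log2(FPKM + 1), with a variance trend and Benjamini-Hochberg adjustment over all 14915 genes, with 2 residual degrees of freedom in each gene's own fit. Log2 changes are control minus unstimulated, given with their standard errors, and understate the changes of low genes. The thresholds of the study, a 2-fold change and an unadjusted p no higher than 0.05, set which genes rose or fell. The procedure was tested beforehand on simulated data with normal noise. These held no run effect, no listings at 0 and no exchange of signal between facing genes, so the effect of these on the calls was not tested.

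Same-numbered libraries share a dated folder in the file headers, and their deviations from the group means correlated at 0.09. With 2 libraries a group, the value of crossed pairs, -0.09, is the same number with the other sign by construction. The replicate block was an alternative, and its value is given where it changed a count by over 1.5 times. Genes facing an exon of another gene over at least 50 bases on the opposite strand were found with bedtools 2.31.1.

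Genes were described by 24 lists of pathways and 8 lists of cell type markers. Any list member could be named, beside the 12 largest rises and falls of protein-coding and the 6 of other genes that reached a mean of 5 FPKM without overlap of the groups, ranked by the smaller within-run change, and *Actb*. Partners of such genes, *Rad54l*, *Notch1*, *Rgs16*, *Gm11175* and *Jund* among them, and the promoter letters searched were chosen after values were seen. The comparison and the lists were chosen with earlier results of these data known. Promoters came from RefSeq (GRCm38.p6), which matched 8718 of 14910 tested gene symbols and 602 of 816 list members. Tables were made with pandas 2.3.3 and numpy 2.4.6 in Python 3.11.15.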

Additional observations from a re-analysis of the deposited data

How the results depend on the processing

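The numbers of genes that rose and fell by the study's thresholds moved by less than 1.5 times under other pseudocounts, filters, scalings, gene TPM, protein-coding genes alone, the replicate block and without the variance trend. Exceptions were the fits without genes that face another, an alternative chosen after seeing the data in which fewer genes were tested, where 916 rose and 1027 fell, and without control replicate 1, where 1102 fell. Leaving out each library in turn, where the lone library of a group is assumed to vary like the other group, gave 1048 to 1350 risen and 1102 to 1506 fallen genes.

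The number of genes with an adjusted p under 0.05, 230 in limma's test, was less stable. It was 6 with a pseudocount of 0.1, 24 without the filter on low values, 151 with TPM, 0 without the variance trend (3310 genes had an unadjusted p of at most 0.05 with it) and 2 without genes that face another. It rose to 536 with a mean of at least 5 FPKM, to 396 with all libraries at one median and to 926 with the replicate block, and ranged from 0 to 788 with each library left out; the cause was not tested. TPM moved the median change over all genes by -0.13.

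Of 228 named genes that had risen or fallen, 188 kept the call under every setting that used all libraries and allowed a test of the gene, and 112 in all 4 fits that left out a library; the sign did not turn in any of them. The replicate block ended the call of 2 of them. The median of 4 lists changed sign with a library left out. It ranged from -0.15 to 0.67 for G1 regulators and from -0.10 to 0.57 for ribosomal proteins, both below 0 without unstimulated replicate 1 and, at -0.07 and -0.03, without control replicate 2. It ranged from -0.17 to 0.46 for fatty acid oxidation, below 0 without control replicate 2, and from -0.69 to 0.50 for histones (0.04 with all libraries), below 0 without control replicate 1. With a mean of at least 5 FPKM the medians of G1 regulators and histones were -0.01 and -0.94, and that of histones was also below 0 with TPM, a pseudocount of 0.1 or protein-coding genes alone. A pseudocount of 5 shrinks the changes of low genes by construction and gave medians of 1.60 for mitosis, 1.14 for replication, 0.60 for granule genes and 0.72 for secreted mediators, against 4.29, 2.56, 2.10 and 2.35 with 0.1. With 64.4 to 171.7 Mb covered and 2 libraries a group, low genes carry little information.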

Other observations

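Some gene types outside the protein-coding genes held more falls than rises. Of 185 small nucleolar RNA genes tested 26 fell and 6 rose. Among 462 lincRNA genes 85 fell and 47 rose, and among 1192 antisense genes 209 fell and 117 rose. The 10116 protein-coding genes held 985 falls and 1113 rises. Over all 14915 genes tested, 1663 (11.1%) fell and 1511 (10.1%) rose. The balance of falls and rises depended on the scaling. With libraries scaled to protein-coding FPKM and only these genes fitted, the same 10116 genes gave 1326 falls and 1070 rises. With TPM, all genes tested gave 1920 falls and 1290 rises. In other types the numbers were close, with 25 rises and 27 falls among 311 miRNA genes, 96 and 107 among 1247 processed pseudogenes and 3 of each among 24 other pseudogenes. The difference between the types was not tested.

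Protein-coding genes with a single exon reached 1 FPKM less often than others. Whether T cells express these genes was not taken into account, so the shares do not show how well they were measured. Of 1349 such genes 16.4% to 17.6% reached 1 FPKM in a library, against 41.1% to 45.6% of 20569 genes with several exons. *AY036118*, annotated as a lincRNA and facing *Gm42418*, varied between replicates more than between groups, at 1943 and 16280 FPKM in unstimulated and 7752 and 32570 FPKM in control cells. *Malat1* lies opposite *Gm37376*, which fell from 7553 and 7387 FPKM to 2490 and 1094 FPKM.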
